A study of Homo sapiens with 4 samples.

Results

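The genes described here are 39 genes of DNA double-strand break repair and mismatch repair, taken by gene symbol from a table of nascent RNA signal that holds 60048 human genes. They comprise 12 genes of homologous recombination, 7 of break sensing and checkpoint signalling, 5 encoding chromatin mediators at breaks, 8 Fanconi anaemia and helicase genes, 5 of non-homologous end joining and 2 of mismatch repair. All 39 symbols were found once in the table, all 39 are protein-coding, and all 39 passed the filter on low values. The assay was EU-seq, in which cells take up the uridine analogue 5-ethynyl uridine (EU) and the RNA made during the pulse is captured by its ethynyl group and sequenced. The cells were HCT116, a human colorectal carcinoma line, of genotype RAD21-mAC, which carries a degron tag on the cohesin subunit RAD21. Control cells (2 libraries) received DMSO, and auxin cells (2 libraries) were kept for 3 h in 0.5 mM indole-3-acetic acid so that RAD21 would be depleted. The depletion acts on the protein, so RNA values do not check it. Both groups carried the tag and both were given 0.5 mM EU for 20 min, so the comparison is between tagged cells with and without auxin. The labels do not say whether the libraries of a group came from separate cultures, so p-values measure only the spread between these libraries.

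The values are a scaled signal over each gene's whole span, introns included, brought to a common scale between libraries by a trimmed mean, so a shift common to most genes does not show. The depth in reads is unknown. Fold changes are auxin minus control on the log2(scaled signal + 1) scale, and a gene was called at a limma adjusted p under 0.05 over all 39464 genes tested. By that rule 289 genes, or 0.732% of those tested, were called. All 9 markers of colorectal epithelium listed for this check had signal in the 4 libraries, with a summed signal of 64622 to 71937 in control and 64661 to 66295 in auxin. Of these markers 6 had an estimate below 0, all with both auxin libraries below both control libraries. The other 3 were above 0, 2 of them with both auxin libraries above both control libraries, and the median was -0.18. Of all genes tested, 48.7% had an estimate below 0, 19.6% lay below both control libraries and 18.6% above both. The markers differed, from -0.37 for the epithelial factor ELF3 and -0.37 for the keratin KRT19 to 0.55 for E-cadherin (CDH1), and none was called. The part of these shifts in the results was not tested. The 10 markers of immune, stromal and endothelial cells summed to 1253 to 1488 and 1681 to 1940.4, in the same order. The 8 of these that were tested had estimates above 0, and their part in the results was not tested. COL1A2 was listed at 0 in control replicate 2, and CD3E and COL1A2 did not pass the filter.

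A double-strand break is sensed by the kinases ATM and ATR and their partners, marked on chromatin by mediator proteins, and then either joined end to end or repaired by homologous recombination, which copies an intact template, usually the sister chromatid. Cohesin holds sister chromatids together and folds chromosomes into loops, and it is itself recruited to breaks. Many genes of homologous recombination and of the Fanconi pathway, which repairs DNA crosslinks, are transcribed most strongly as cells enter and pass through S phase, whereas end joining operates throughout the cell cycle. Mismatch repair removes replication errors, and HCT116 is a line with defective mismatch repair.

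None of the 39 repair genes was called in either direction, and the smallest limma adjusted p among them was 0.0808, for FANCA. At an unadjusted p under 0.05 there were 18 lower genes and 1 higher gene, against a background of 5.47% lower and 4.75% higher among all genes tested. The estimate was below 0 for 33 of the 39, against 48.7% of all genes, and the median log2 fold change was -0.29, against 0.009 over all genes. By the adjusted rule the background was 0.4% lower and 0.332% higher. Both auxin libraries lay below both control libraries for 25 repair genes (background 19.6%) and above both for 2 (background 18.6%), and the groups overlapped for the other 12. Among the 11271 protein-coding genes with at least the mean signal of LIG4, the lowest repair gene, the same shares were 28.7% below, 21% above and 54.9% with an estimate below 0. Of these better measured genes 1.65% were called (0.985% lower and 0.665% higher), and 11.5% and 7.05% had an unadjusted p under 0.05 and were lower and higher. On the scale of the deposited values, without the trimmed-mean scaling, 11 repair genes in place of 25 had both auxin libraries below both control libraries, and the median was -0.31. The 19 genes at an unadjusted p under 0.05 were 0 on the deposited scale, and 18 or 19 with the other scalings, filters and pseudocounts. The share of all genes at that limit was not taken in these settings. Without one library at a time, which leaves 1 library in a group, the member median lay between -0.41 and -0.22. Because these are bulk samples, fewer cells transcribing a gene and less RNA per cell cannot be told apart.

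**Figure D1:**
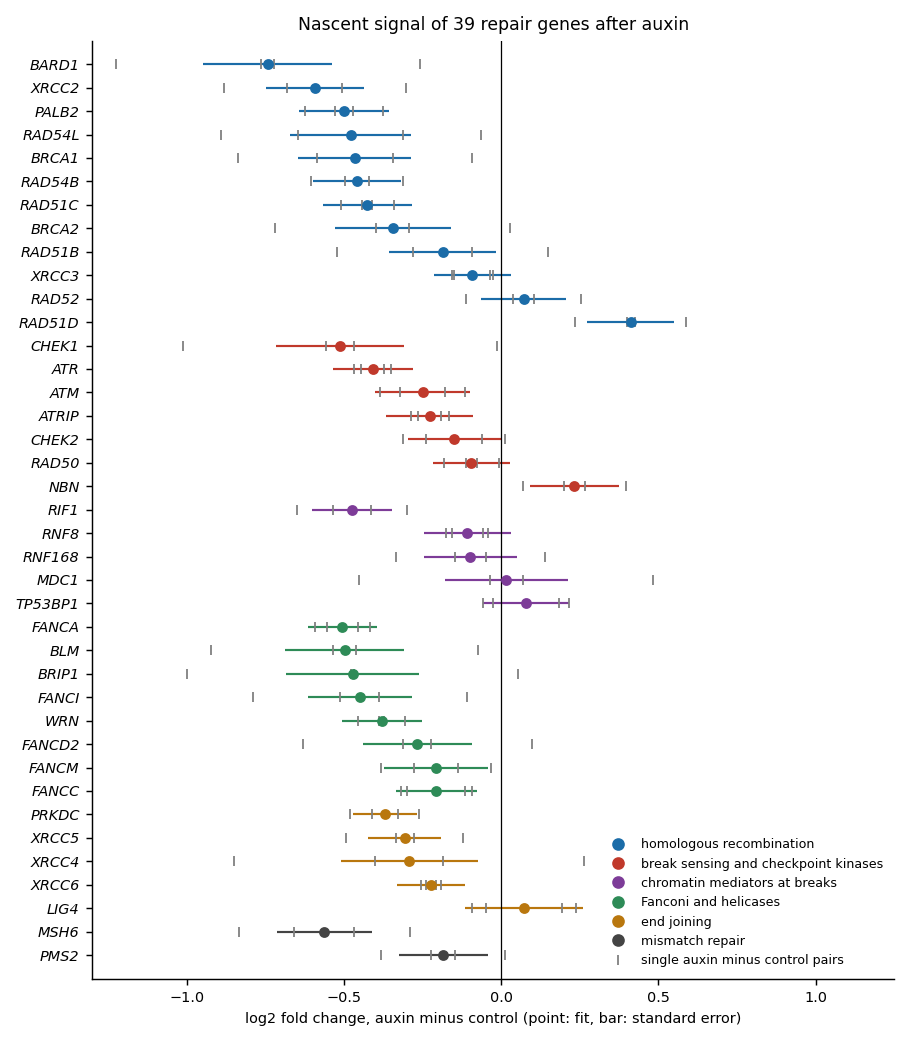
Log2 fold change of nascent signal, auxin minus control, for 39 repair genes (points, coloured by role; bars are the standard error of the limma fit; grey ticks are the 4 single auxin-control pairs). Estimates ran from -0.74 for BARD1 to 0.41 for RAD51D, and 33 of 39 lay below 0.

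In homologous recombination, 10 of 12 genes had an estimate below 0, with a median log2 fold change of -0.44, and both auxin libraries were below both control libraries for 8. For this and the following role groups, the shares over all genes tested were 48.7% below 0 and 19.6% below both control libraries. Over the better measured genes they were 54.9% and 28.7%. BARD1, the obligate partner of BRCA1 in a ubiquitin ligase (GRCh38 chr2:214725646-214809683, minus strand), had a scaled signal of 3708 and 5113 in control and 2186 and 3099 in auxin. Its auxin libraries were thus both below the lower control library, the mean was 4411 ± 994 for control and 2643 ± 646 for auxin (SD, n = 2 per group), and it had the lowest estimate of the 39 (log2 estimate -0.74 ± 0.21 SE, adjusted p = 0.176 by limma). BRCA1 itself, which favours resection of broken ends and helps to load the recombinase (chr17:43044295-43125483, minus strand), gave 4696 and 5590.3 in control and 3128 and 4399.6 in auxin. The groups did not overlap, but auxin replicate 2 lay closer to control replicate 1 than to auxin replicate 1 (log2 estimate -0.47 ± 0.18 SE, adjusted p = 0.378 by limma).

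PALB2, which bridges BRCA1 and BRCA2 (chr16:23603165-23641310, minus strand), measured 4034 and 4483 in control and 3109 and 2912 in auxin, and the gap between the groups was wider than the spread within either (log2 estimate -0.50 ± 0.14 SE, adjusted p = 0.191 by limma). For BRCA2, which places the recombinase on single-stranded DNA (chr13:32315086-32400268, plus strand), the values were 2765 and 3714 in control and 2256 and 2821 in auxin. Auxin replicate 2 was above control replicate 1, so the groups overlapped (log2 estimate -0.34 ± 0.18 SE, adjusted p = 0.601 by limma).

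The paralogues of the recombinase, which assist filament assembly, had estimates of both signs. XRCC2 (chr7:152644776-152676141, minus strand) read 7188 and 8267 in control and 4488 and 5825 in auxin, without overlap (log2 estimate -0.59 ± 0.16 SE, adjusted p = 0.154 by limma). RAD51C (chr17:58692602-58735611, plus strand) had 3934 and 3754 in control and 2762 and 2961 in auxin, again without overlap and with little spread within either group (log2 estimate -0.43 ± 0.14 SE, adjusted p = 0.275 by limma). RAD51D (chr17:35092221-35119860, minus strand) had the opposite sign, with 4619 and 5172 in control and 6091 and 6949 in auxin. Both its auxin libraries exceeded both control libraries, the mean was 4896 ± 391 for control and 6519.7 ± 607 for auxin (SD, n = 2 per group), and it had the highest estimate of the 39 (log2 estimate 0.41 ± 0.14 SE, adjusted p = 0.282 by limma). The whole span of RAD51D lies inside AC004223.3, a longer protein-coding entry on the same strand that also covers most of the neighbouring gene RFFL and read 9532 and 9612 in control and 12508 and 13993 in auxin. RFFL, which does not overlap RAD51D, measured 5881 and 5441 in control and 7386 and 8128 in auxin, a log2 fold change of 0.45 (limma adjusted p = 0.191). How much of the RAD51D signal belongs to each entry cannot be read from the table, and RFFL was chosen here after its values were seen.

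For the other two paralogues the difference was smaller. XRCC3 (chr14:103697617-103715504, minus strand) gave 8577 and 7881 in control and 7689.9 and 7735 in auxin, and although the auxin libraries were the lower ones, the estimate was smaller than its standard error (log2 estimate -0.092 ± 0.12 SE, adjusted p = 0.918 by limma). RAD51B, by far the longest of the 39 at 791787 bases (chr14:67819779-68611565, plus strand), had 4584 and 5419 in control and 3777 and 5083 in auxin, with overlapping groups (log2 estimate -0.19 ± 0.17 SE, adjusted p = 0.846 by limma). RAD51C and XRCC3 act together as a pair, and RAD51D and XRCC2 belong to a common complex with RAD51B and RAD51C. Within that complex RAD51D and XRCC2 therefore had estimates of opposite sign.

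The DNA translocases RAD54L and RAD54B, which remodel DNA during strand exchange, both read lower in auxin. RAD54L (chr1:46247700-46278480, plus strand) had 4627 and 5492 in control and 2959 and 4422 in auxin (log2 estimate -0.48 ± 0.19 SE, adjusted p = 0.408 by limma), and its auxin replicates differed by more than the gap between the nearest auxin and control libraries. RAD54B (chr8:94371960-94475115, minus strand) had 5136 and 5535 in control and 3643 and 4137 in auxin (log2 estimate -0.46 ± 0.14 SE, adjusted p = 0.225 by limma), with the groups well apart. RAD52, which anneals complementary single strands (chr12:912545-990053, minus strand), showed 7085 and 6104 in control and 6563 and 7276 in auxin, with 1 auxin value inside the control range and 1 above it (log2 estimate 0.071 ± 0.14 SE, adjusted p = 0.957 by limma).

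Of the 7 genes for break sensing and checkpoint signalling, 6 had an estimate below 0 and the median log2 fold change was -0.23. ATR, the kinase that responds to single-stranded DNA and stalled forks (chr3:142449235-142578733, minus strand), measured 6935 and 7041 in control and 5439 and 5096 in auxin. Replicates lay close together and the groups were separate, with a mean of 6988 ± 75 for control and 5267 ± 243 for auxin (SD, n = 2 per group; log2 estimate -0.41 ± 0.13 SE, adjusted p = 0.237 by limma). ATRIP, which brings ATR to single-stranded DNA (chr3:48446737-48467645, plus strand), had 4026 and 3962 in control and 3529 and 3297 in auxin, also separate (log2 estimate -0.23 ± 0.14 SE, adjusted p = 0.677 by limma). CHEK1, the checkpoint kinase that ATR activates (chr11:125625974-125676255, plus strand), had 4689.7 and 6838 in control and 3388 and 4648 in auxin (log2 estimate -0.51 ± 0.20 SE, adjusted p = 0.4 by limma). Here auxin replicate 2 lay just below control replicate 1, and the control replicates themselves differed by 0.54 on the log2 scale.

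ATM, the kinase activated directly by breaks (chr11:108222832-108369099, plus strand), read 3047 and 2918 in control and 2694 and 2335 in auxin, a small gap without overlap (log2 estimate -0.25 ± 0.15 SE, adjusted p = 0.676 by limma). CHEK2, the kinase that ATM activates (chr22:28687766-28741806, minus strand), gave 4308 and 3618 in control and 3648 and 3471 in auxin, with 1 auxin value between the control values (log2 estimate -0.15 ± 0.15 SE, adjusted p = 0.862 by limma). RAD50 and NBN encode parts of the complex that binds broken ends and activates ATM. RAD50 (chr5:132556977-132646349, plus strand) had 8469 and 8891 in control and 7833 and 8428 in auxin (log2 estimate -0.095 ± 0.12 SE, adjusted p = 0.912 by limma). Its auxin libraries were the lower ones by a narrow margin, and nearly its whole span is shared with AC116366.1, a longer entry on the same strand. NBN (chr8:89933331-89984667, minus strand), which overlaps no other tested gene, had 4089 and 4688 in control and 5389 and 4914 in auxin, so it was the other member besides RAD51D with both auxin libraries above both control libraries (log2 estimate 0.23 ± 0.14 SE, adjusted p = 0.675 by limma).

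The 5 chromatin mediators had the median closest to 0, at -0.098, with 3 estimates below 0. RIF1, which acts with TP53BP1 to limit resection and also sets replication timing (chr2:151409902-151482172, plus strand), had the lowest estimate of the 5, with 12223 and 14372 in control and 9165 and 9921 in auxin. Its groups did not overlap, the mean was 13297 ± 1519 for control and 9543 ± 535 for auxin (SD, n = 2 per group), and no tested gene overlaps it (log2 estimate -0.47 ± 0.13 SE, adjusted p = 0.158 by limma). TP53BP1, the scaffold that recruits RIF1 (chr15:43407209-43510614, minus strand), read 5024 and 5929 in control and 5702 and 5829 in auxin, with both auxin values inside the control range (log2 estimate 0.079 ± 0.14 SE, adjusted p = 0.95 by limma). MDC1, which binds the phosphorylated histone at breaks (chr6:30699807-30717281, minus strand), had 4494 and 5995 in control and 4381 and 6284 in auxin, where replicate 2 exceeded replicate 1 in each group and the groups overlapped (log2 estimate 0.016 ± 0.20 SE, adjusted p = 0.995 by limma). The ubiquitin ligases RNF8 and RNF168, which build the mark that TP53BP1 recognises, gave estimates of -0.11 and -0.098, each smaller than its standard error of 0.14 and 0.15. The scaled signal of RNF8 (chr6:37353983-37394734, plus strand) was 4023 and 3715 in control and 3608 and 3566 in auxin, and that of RNF168 (chr3:196468783-196503768, minus strand) was 5677 and 6462 in control and 5125 and 6248 in auxin. The groups were separate for RNF8, narrowly, and overlapped for RNF168.

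All 8 Fanconi and helicase genes had an estimate below 0, against 48.7% of all genes tested and 54.9% of the better measured ones. The median log2 fold change was -0.41. In 6 of the 8 both auxin libraries were below both control libraries, against 19.6% and 28.7%. FANCA, a core subunit of the ligase that ubiquitinates FANCD2 and FANCI (chr16:89737549-89816647, minus strand), had 21449 and 22027 in control and 14613 and 16057 in auxin. With a mean of 21738 ± 408 for control and 15335 ± 1021 for auxin (SD, n = 2 per group), its groups were separated by more than the spread within either (log2 estimate -0.50 ± 0.11 SE, adjusted p = 0.0808 by limma; unadjusted p = 0.00085). FANCA shares 4.24% of its span with ZNF276 on the other strand. FANCC, another core subunit (chr9:95099054-95317709, minus strand), read 8249.8 and 8367 in control and 6702 and 7732 in auxin (log2 estimate -0.21 ± 0.13 SE, adjusted p = 0.689 by limma). FANCM, the translocase that anchors the core complex to DNA (chr14:45135930-45200890, plus strand), had 1949.7 and 1646 in control and 1609 and 1496 in auxin (log2 estimate -0.21 ± 0.17 SE, adjusted p = 0.803 by limma). In both FANCC and FANCM the auxin libraries were the lower ones, by little.

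The pair that the ligase modifies showed a wide spread between replicates. FANCI (chr15:89243949-89317261, plus strand) had 6102 and 8070.0 in control and 4666 and 5659.6 in auxin (log2 estimate -0.45 ± 0.17 SE, adjusted p = 0.346 by limma), and FANCD2 (chr3:10026437-10101932, plus strand) had 4429 and 5879.9 in control and 3798 and 4736 in auxin (log2 estimate -0.27 ± 0.17 SE, adjusted p = 0.715 by limma). The groups were separate for FANCI and overlapped for FANCD2. Of the helicases, BRIP1, which binds BRCA1 (chr17:61679139-61863528, minus strand), had 4074 and 5890.0 in control and 2946 and 4232 in auxin, and its groups overlapped (log2 estimate -0.47 ± 0.21 SE, adjusted p = 0.487 by limma). BLM, which unwinds joint molecules (chr15:90717346-90816166, plus strand), had 4105 and 5374 in control and 2834 and 3903 in auxin, without overlap (log2 estimate -0.50 ± 0.19 SE, adjusted p = 0.368 by limma). WRN, a helicase and exonuclease on which cells with defective mismatch repair depend (chr8:31033810-31176138, plus strand), had 6875 and 7279 in control and 5565 and 5308 in auxin. Its replicates lay close together and its groups apart (log2 estimate -0.38 ± 0.13 SE, adjusted p = 0.28 by limma).

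In end joining, 4 of 5 genes had an estimate below 0, with a median of -0.29. PRKDC, the catalytic subunit of the DNA-dependent protein kinase (chr8:47773111-47960136, minus strand), had 33155 and 36797 in control and 26391 and 27675 in auxin, with separate groups (log2 estimate -0.37 ± 0.10 SE, adjusted p = 0.174 by limma). XRCC5 and XRCC6 encode the Ku subunits that hold broken ends. XRCC5 (chr2:216107464-216206303, plus strand) read 22388 and 25979 in control and 18462 and 20588 in auxin (log2 estimate -0.31 ± 0.12 SE, adjusted p = 0.367 by limma). XRCC6 (chr22:41621163-41664048, plus strand) read 16379 and 16943 in control and 14344 and 14192 in auxin (log2 estimate -0.22 ± 0.11 SE, adjusted p = 0.53 by limma). In both, every auxin library was below every control library. The ligation partners XRCC4 and LIG4 did not separate. XRCC4 (chr5:83077498-83353758, plus strand) had 5093 and 8081 in control and 4484 and 6114 in auxin, the widest control spread of the 39 on the log2 scale (log2 estimate -0.29 ± 0.22 SE, adjusted p = 0.77 by limma). LIG4 (chr13:108207439-108218368, minus strand), the shortest and the one with the lowest signal over its span, had 825 and 800.2 in control and 943 and 774 in auxin (log2 estimate 0.072 ± 0.19 SE, adjusted p = 0.972 by limma).

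The mismatch repair genes differed in size of estimate. MSH6, a subunit of the dimer that recognises mismatches (chr2:47783082-47806945, plus strand), had 8506 and 9609 in control and 5389 and 6951 in auxin. The mean was 9058 ± 780.4 for control and 6170.1 ± 1104 for auxin (SD, n = 2 per group) and the groups were separate (log2 estimate -0.56 ± 0.15 SE, adjusted p = 0.161 by limma). PMS2, a subunit of the endonuclease that acts next (chr7:5970925-6009049, minus strand), had 6379 and 5715 in control and 5767 and 4898 in auxin, with 1 auxin value between the control values (log2 estimate -0.18 ± 0.14 SE, adjusted p = 0.786 by limma). Whether any of these genes or role groups differed from one another in its response was not tested.

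**Figure D2:**
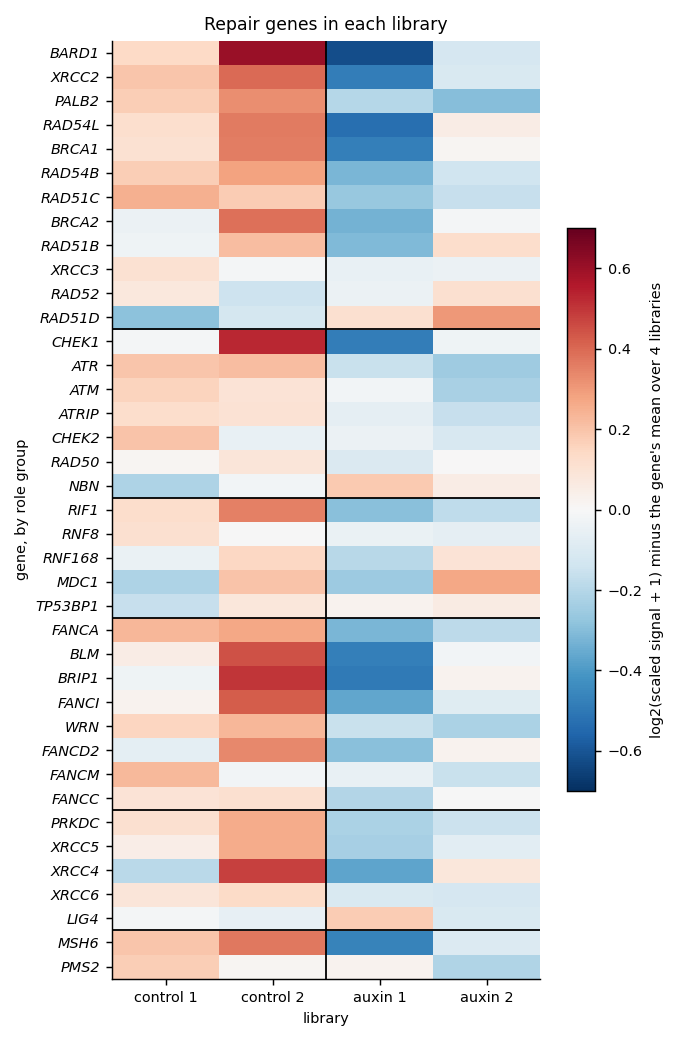
Each of 39 repair genes (rows, by role group) in each of 4 libraries (columns); colour gives log2(scaled signal + 1) minus the gene's mean over the 4 libraries. Control replicate 2 was above control replicate 1 for 29 of 39 genes and auxin replicate 2 above auxin replicate 1 for 27.

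The repair genes also varied between replicates of a group. Control replicate 2 was above control replicate 1 for 29 of 39, with a median difference of 0.16 on the log2 scale, against 50.1% of all genes tested and 45.9% of the better measured ones. Auxin replicate 2 was above auxin replicate 1 for 27, with a median difference of 0.15, against 51.2% and 48.5%. Of the single pairs, auxin replicate 1 against control replicate 2 gave the lowest member median (-0.45, 33 genes lower) and auxin replicate 2 against control replicate 1 the highest (-0.12, 28 lower). The other pairs gave -0.28 within replicate number 1 and -0.32 within replicate number 2, with 35 genes lower in each. These pairs reuse the same 4 libraries and are not separate observations.

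Single libraries set the size of many estimates. Leaving out one library at a time moved the estimate by over 1.5 times, or changed its sign, for 27 of the 39. The other 12 were PALB2, RAD51C, RAD51D, XRCC2, RAD54B, ATR, ATRIP, RIF1, FANCA, WRN, PRKDC and XRCC6. Without auxin replicate 2 and without auxin replicate 1, in that order, the log2 estimate was -0.99 and -0.48 for BARD1, -0.71 and -0.21 for BRCA1, -0.77 and -0.18 for RAD54L, -0.73 and -0.20 for BRIP1, -0.73 and -0.26 for BLM and -0.75 and -0.37 for MSH6. Without control replicate 1 and without control replicate 2, it was -0.55 and -0.13 for BRCA2, -0.78 and -0.24 for CHEK1, -0.64 and -0.25 for FANCI and -0.41 and -0.20 for XRCC5. The sign changed without 1 library for RAD51B, RAD52, TP53BP1, MDC1, RNF168, XRCC4 and LIG4, and XRCC3, RAD50, NBN, ATM, CHEK2, RNF8, FANCC, FANCD2, FANCM and PMS2 moved by over 1.5 times with the sign kept.

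Other genes of the same pathways were compared through a list of 76. Of these, 1 was called lower and 0 higher, 50 had an estimate below 0, and the median log2 fold change was -0.15. Among all genes tested, 0.4% were called lower, 0.332% higher and 48.7% had an estimate below 0. Among the better measured protein-coding genes these shares were 0.985%, 0.665% and 54.9%. The called gene was POLD1, the catalytic subunit of a replicative polymerase that also refills excised mismatches, which read 6772 and 7129 in control and 4119 and 4359 in auxin (log2 estimate -0.71 ± 0.13 SE, adjusted p = 0.04 by limma). This call was lost on the deposited scale, with scaling by library total (limma adjusted p = 0.0514), without the filter (0.0504), and without control replicate 1 (0.0665), control replicate 2 (0.134) or auxin replicate 1 (0.0758). By pathway, the median was -0.17 for 24 genes of recombination, resection and resolution, -0.12 for 22 of damage signalling and chromatin, -0.30 for 12 further Fanconi genes, -0.072 for 11 of end joining and -0.41 for 7 of mismatch repair. Those 7 were the mismatch factors PMS1 (-0.55), MLH3 (-0.31) and MSH3 (-0.11), together with POLD1 (-0.71), LIG1 (-0.61), PCNA (-0.41) and RFC1 (-0.32). DNA2, a resection nuclease, read 4507 and 5205 in control and 2898 and 3633 in auxin (log2 estimate -0.58 ± 0.16 SE, adjusted p = 0.176 by limma). FANCL, the ligase subunit of the Fanconi core complex, read 4384 and 6074 in control and 2851 and 3247 in auxin (log2 estimate -0.76 ± 0.18 SE, adjusted p = 0.0992 by limma). DNA2 and FANCL were chosen after their values were seen, and neither passed the test.

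Genes that mark S phase also had estimates below 0. All 19 listed S phase genes, which drive or carry out DNA replication, had an estimate below 0, with a median of -0.65. Both auxin libraries were below both control libraries for 16 of them, and none was called. The shares over all genes tested were 48.7% below 0, 19.6% below both control libraries and 0.4% called lower. For the better measured protein-coding genes they were 54.9%, 28.7% and 0.985%. E2F1, which activates genes at S phase entry, read 5176 and 5958 in control and 2943 and 3580.0 in auxin (log2 estimate -0.77 ± 0.15 SE, adjusted p = 0.0578 by limma). MCM5, a subunit of the replicative helicase, read 14071 and 16482 in control and 7712 and 10738 in auxin (log2 estimate -0.74 ± 0.16 SE, adjusted p = 0.0839 by limma). Both were chosen after their values were seen. The list summed to 139200.3 to 176324 in control and 88137 to 118772 in auxin. The 17 G2 and M phase genes had a median of 0.13, with 13 estimates above 0 and none called. Their sums were 54659 to 75350.3 and 61470.4 to 76470.4, which overlap, and the groups overlapped for 15 of the 17. Against control replicate 1 their medians were 0.20 for auxin replicate 1 and 0.36 for auxin replicate 2. Against control replicate 2 they were -0.24 and -0.06, so the sign depended on the control library. The S phase genes also differed between replicates: 19 of 19 were higher in control replicate 2 than in control replicate 1, by a median of 0.36, and 19 were higher in auxin replicate 2 than in auxin replicate 1, by 0.47. Of the 17 G2 and M phase genes, 16 were likewise higher in replicate 2 of each group. Their medians were 0.44 in control and 0.12 in auxin, beside 0.36 and 0.47 for the S phase genes. The medians of the repair genes in these replicate comparisons had the same sign as those of both lists. They were smaller than those of the S phase genes. The part of cell cycle phase in the values of the repair genes was not tested.

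**Figure D3:**
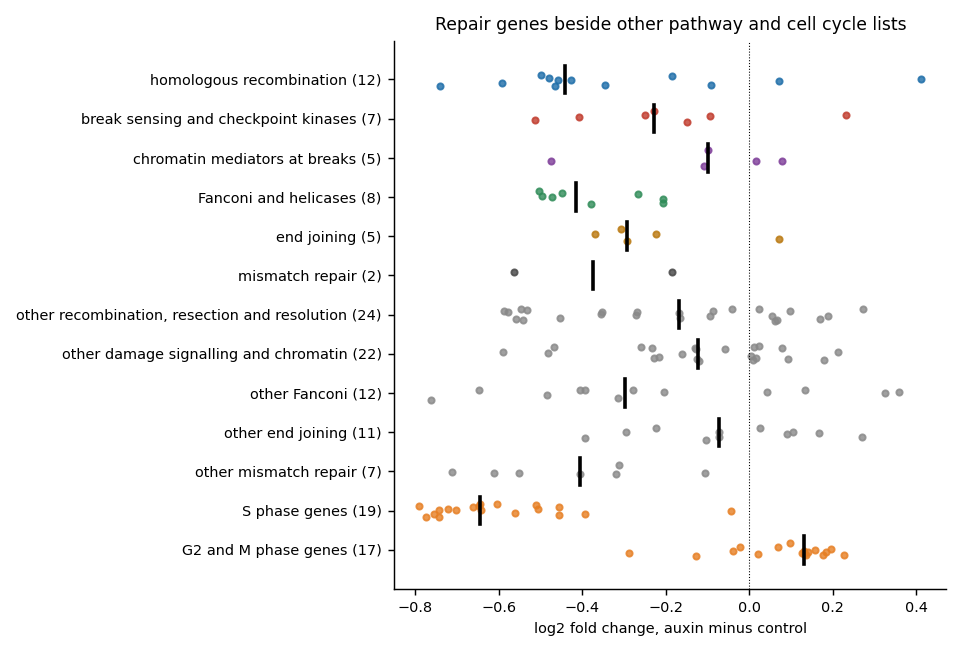
Log2 fold change, auxin minus control, of the 39 repair genes by role group (coloured), of 76 other pathway genes (grey) and of cell cycle genes (orange); each point is a gene, black bars are medians and list sizes are in parentheses. Medians ran from -0.65 for S phase genes to 0.13 for G2 and M phase genes, with homologous recombination at -0.44.

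Many repair genes start close to a gene on the other strand, and such pairs often share a promoter region. A tested gene on the other strand had its start within 1000 bases of the start of 20 of the 39, giving 21 pairs. None of these partners was called. Of the partners, 12 had an estimate below 0 and the median was -0.047, against -0.26 for the repair genes they pair with. Both auxin libraries were below both control libraries for 7 partners and above both for 3. Among all genes tested, 48.7% had an estimate below 0, 19.6% lay below both control libraries and 18.6% above both. Among the better measured protein-coding genes these shares were 54.9%, 28.7% and 21%. The partner and the repair gene had estimates of the same sign in 12 of 21 pairs, and the difference within pairs was not tested.

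In 3 pairs the partner had an unadjusted p under 0.05, each time lower. NPAT, a coactivator of histone genes in S phase, starts 194 bases from ATM and read 3749 and 4112 in control and 2486 and 2923 in auxin (log2 estimate -0.54 ± 0.15 SE, adjusted p = 0.182 by limma), while ATM had -0.25. MCM4, a subunit of the replicative helicase, starts 800 bases from PRKDC and read 6248 and 8636 in control and 4109 and 5674 in auxin (log2 estimate -0.61 ± 0.19 SE, adjusted p = 0.249 by limma), beside -0.37 for PRKDC. TMEM167A starts 104 bases from XRCC4 and read 4560.1 and 5379.7 in control and 4236 and 3591 in auxin (log2 estimate -0.34 ± 0.15 SE, adjusted p = 0.471 by limma). In other pairs the estimates differed in sign. DCTN5, a dynactin subunit that starts 156 bases from PALB2, read 6878 and 7571 in control and 7618 and 8304 in auxin (log2 estimate 0.14 ± 0.13 SE, adjusted p = 0.843 by limma), with PALB2 at -0.50. NBR2, a long noncoding RNA gene that starts 68 bases from BRCA1, read 2558 and 2150.0 in control and 2557 and 2575 in auxin (log2 estimate 0.13 ± 0.16 SE, adjusted p = 0.903 by limma), with BRCA1 at -0.47. The other partners with an estimate below 0 were PURG beside WRN, AIMP2 beside PMS2, FKBP3 beside FANCM, DESI1 beside XRCC6, IGBP1P2 beside RAD51C, HSCB beside CHEK2, AC134772.1 beside ATRIP, CIDECP1 beside FANCD2 and TUBB beside MDC1, from -0.46 to -0.046. Those with an estimate above 0 were ZAR1L beside BRCA2, ZFYVE21 beside XRCC3, IL5 beside RAD50, CRTC3-AS1 beside BLM, TEX14 beside RAD51C, ABHD13 beside LIG4 and SNHG31 beside BARD1, from 0.26 to 0.026. The values farthest from 0 in these lists come from genes of low signal. PURG read 39 and 29 in control and 26 and 22 in auxin, with a standard error of 0.42. ZAR1L, which overlaps BRCA2, read 61 and 73 in control and 73 and 88 in auxin, with a standard error of 0.31. The stretches between the starts of ATM and NPAT and of PALB2 and DCTN5 are shown from RefSeq (GRCh38.p14), since these are a pair with estimates of like sign and a pair with estimates of opposite sign. The first is chr11:108222639-108222831 on the minus strand, ending at the base before the start of NPAT, and the second is chr16:23641311-23641465 on the plus strand, ending at the base before the start of DCTN5. Capitals mark CCAAT or its reverse complement ATTGG, a short box common in promoters.
ATM and NPAT: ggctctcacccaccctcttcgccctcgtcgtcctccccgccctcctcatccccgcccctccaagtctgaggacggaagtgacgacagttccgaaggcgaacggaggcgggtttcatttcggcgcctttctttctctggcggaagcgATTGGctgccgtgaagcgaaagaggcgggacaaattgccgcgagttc
PALB2 and DCTN5: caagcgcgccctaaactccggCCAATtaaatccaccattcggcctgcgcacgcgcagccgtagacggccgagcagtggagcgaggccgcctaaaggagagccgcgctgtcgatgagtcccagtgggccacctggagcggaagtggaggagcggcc
Each stretch holds 1 such box. In RefSeq promoters of 300 bases around the start, CCAAT on either strand was present for 19 of 33 repair genes (57.6%) and for 34.6% of all promoters.

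**Figure D4:**
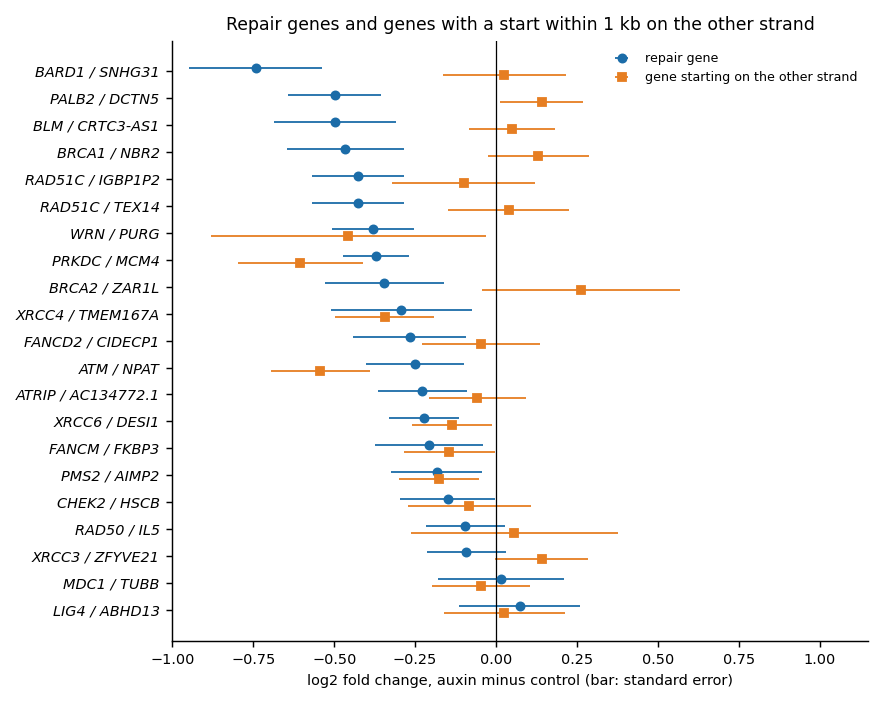
Log2 fold change, auxin minus control, of repair genes (blue circles) and of the gene whose start lies within 1000 bases on the other strand (orange squares), for 21 pairs; bars are standard errors of the limma fit. PRKDC and MCM4 were at -0.37 and -0.61, whereas BARD1 and SNHG31 were at -0.74 and 0.026.

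Because S phase genes also had estimates below 0, RefSeq promoters (GRCh38.p14, from 250 bases before to 50 bases after the start) were searched for E2F-like letters, the motif of the E2F factors that activate such genes. The letters were TTTCCCGC, TTTGGCGC, TTTCGCGC and TTTGCCGC, on both strands. A promoter was found for 33 of 39 repair genes; RAD54B, NBN, FANCI, WRN, PRKDC and XRCC5 were not matched. A match was present in 7 of the 33, or 21.2%, against 3.31% of all 35116 promoters and 4.82% of the 13602 of tested protein-coding genes. The repair genes with a match had a median log2 fold change of -0.27 and those without -0.24, a difference that was not tested. Among all tested protein-coding genes with a promoter the medians were -0.072 with and -0.0077 without. The 30 bases around each match are printed 5′ to 3′ on the gene's strand, with the match in capitals, to show the sites beside their flanks; FANCC holds 2.
XRCC2: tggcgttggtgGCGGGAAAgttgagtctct
FANCA: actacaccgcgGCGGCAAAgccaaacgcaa
FANCC (first): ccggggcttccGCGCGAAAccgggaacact
FANCC (second): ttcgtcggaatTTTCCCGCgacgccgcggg
FANCD2: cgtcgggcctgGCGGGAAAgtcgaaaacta
XRCC6: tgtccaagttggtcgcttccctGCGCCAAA
MSH6: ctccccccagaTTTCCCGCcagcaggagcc
PMS2: cgggaagtattTTTGCCGCcccgcccggaa
The windows are, in the same order, XRCC2 chr7:152676102-152676131 on the minus strand, FANCA chr16:89816801-89816830 on the minus strand, FANCC chr9:95317863-95317892 on the minus strand, FANCC chr9:95317737-95317766 on the minus strand, FANCD2 chr3:10026424-10026453 on the plus strand, XRCC6 chr22:41621315-41621344 on the plus strand, MSH6 chr2:47783137-47783166 on the plus strand and PMS2 chr7:6009131-6009160 on the minus strand. Counted from the RefSeq start, with negative numbers before it, the match began at base 22 in XRCC2, -172 in FANCA and -172 and -46 in FANCC. It began at -2 in FANCD2, 43 in XRCC6, 4 in MSH6 and -43 in PMS2.
BARD1, with the lowest estimate, has no match in this window. Ranked from the lowest estimate among the 39, the genes with a match were XRCC2 (2), MSH6 (3), FANCA (5), FANCD2 (21), XRCC6 (24), FANCC (26) and PMS2 (28).

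Genes whose spans overlap are not separated in these values, and how the counting used strand is not stated. Of the 39, 10 overlap no other tested gene: BARD1, RAD51C, XRCC2, XRCC3, NBN, CHEK2, RIF1, FANCM, BRIP1 and LIG4. Their median log2 fold change was -0.32, with 8 of 10 below 0 and 6 with both auxin libraries below both control libraries. These 2 shares were 48.7% and 19.6% among all genes tested and 54.9% and 28.7% among the better measured ones. Among the overlapping repair genes, MSH6 shares 26 bases with FBXO11 and FANCI shares 942 bases with POLG, whose estimates were 0.095 and -0.05. PALB2 shares 47.9% of its span with the lncRNA gene AC008870.4 on the other strand, at -0.51 beside -0.50 for PALB2. MDC1 shares 57.9% with MDC1-AS1, also on the other strand, at 0.041 beside 0.016 for MDC1. ATM shares 41.4% with C11orf65 on the other strand, at 0.0021 beside -0.25 for ATM. RAD54B shares 56.8% with FSBP on the same strand, at -0.41. Whether signal of one strand entered the values of the other was not tested.

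Levels between genes were compared as scaled signal per kb of span, which spreads intron and exon signal over the whole gene. In control, the highest level per kb was that of XRCC3 (479 and 441 in control and 429.9 and 432 in auxin), followed by XRCC6 (382 and 395 in control and 334 and 331 in auxin) and MSH6 (356 and 403 in control and 226 and 291 in auxin). The order of XRCC6 and MSH6 was not separated by their control replicates. The lowest were RAD51B (5.79 and 6.84 in control and 4.77 and 6.42 in auxin), ATM (20.8 and 20 in control and 18.4 and 16 in auxin) and XRCC4 (18.4 and 29.3 in control and 16.2 and 22.1 in auxin), with ATM and XRCC4 overlapping in control. The control means spanned 72.8-fold from RAD51B to XRCC3. Spans ran from 10930 bases for LIG4 to 791787 for RAD51B, with a median of 73313. Across the 39 genes, which share the 4 libraries, Spearman's rho was -0.15 between the log2 fold change and the span and -0.02 between the log2 fold change and the control level per kb, given as a description. The second pair shares the control values.

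**Figure D5:**
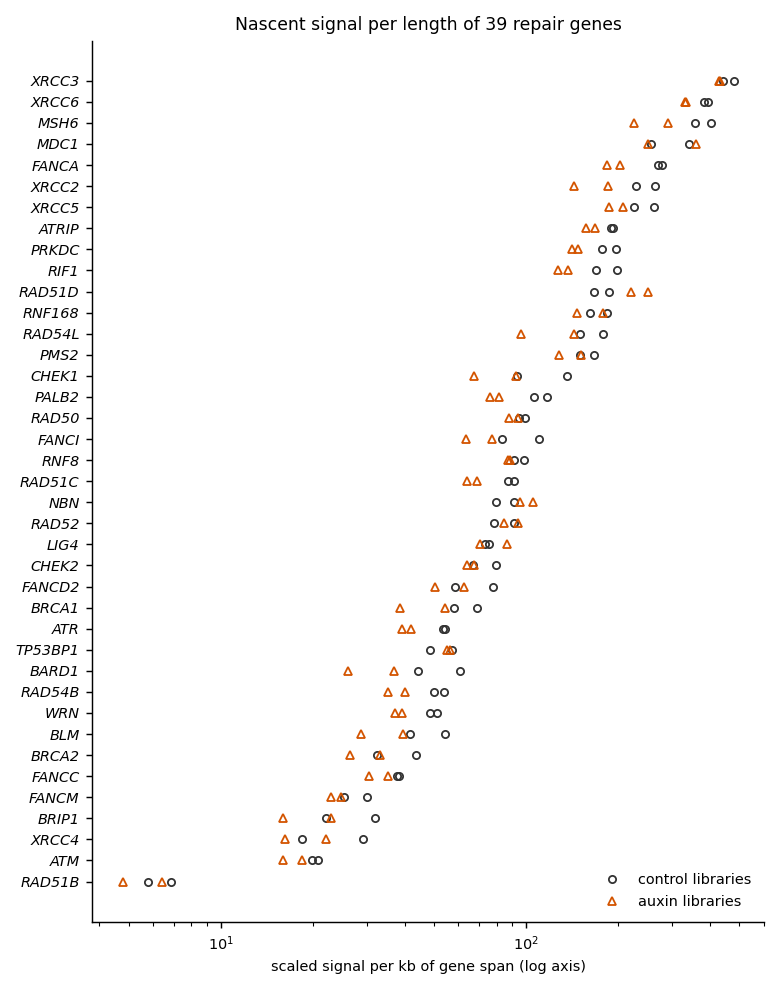
Scaled signal per kb of gene span (log axis) of 39 repair genes in each library, ordered by the control mean; circles are control libraries and triangles auxin libraries. XRCC3 had the highest control mean, at 460.0 per kb, and RAD51B the lowest, at 6.32.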

How the data were processed

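Nascent RNA was sequenced in 2 control and 2 auxin libraries, grouped by the sample titles. Per the labels' protocols, rRNA-depleted RNA of the labelled HCT116 cells was mixed with mRNA of labelled fly S2 cells before capture, and a directional library kit was used. The submitters' processing notes name Trimmomatic 0.39, Bowtie2 2.4.5, deepTools 3.5.1 and the builds hg38 and dm6, without role or order; the counter, annotation and scaling are not given in the sources used here. The authors deposited 1 table with a signal per gene and library, in steps that differ between libraries and are not single reads, so no count model was used. The misspelt header of 1 control column was read by its replicate number. The table names no build; all 39 genes overlapped the RefSeq gene of their symbol in GRCh38, and starts, which count from 0, are printed 1 higher.

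Genes were tested with R 4.3.3 and limma 3.58.1 (lmFit, eBayes with an intensity trend, prior degrees of freedom 8.23). The filter asked for a value of 10, at the median library total, in 2 or more libraries and a sum of at least 15. Scaling used the weighted trimmed mean of log ratios, dropping 30% of the ratios and 5% of the levels from either tail. The pseudocount was 1, and Benjamini-Hochberg adjustment covered 39464 genes. The procedure was tested on simulated data. Figures were drawn with matplotlib 3.10.9. The 39 genes and all lists were chosen with earlier results of these data known, so no test of a list was made. Described in full are those with an adjusted or unadjusted p under 0.05, the 6 highest and 6 lowest estimates among genes whose groups do not overlap, and the 3 highest and 3 lowest levels per kb. Start partners, called genes of the other lists and those of the 39 called only with the replicate block are named. Alternatives were other scalings, filters, pseudocounts and thresholds, the replicate number as a block, and leaving out each library.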

Additional observations from a re-analysis of the deposited data

How the results depend on the processing

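No repair gene was called under median-ratio scaling, scaling by library total, the deposited scale, no filter, a mean of at least 50, pseudocounts of 0.1 and 10 or an adjusted p under 0.01, and 0 to 5 were called without one library at a time. The 5 came without auxin replicate 2 and were BARD1, XRCC2, RAD54L, FANCA and MSH6, with a smallest adjusted p of 0.00316; the lone auxin library is there assumed to vary like the others, and the cause was not tested. Nothing in the labels ties equal replicate numbers together, and there are only 2 pairs. The log2 difference of replicate 2 from replicate 1 correlated across genes between control and auxin with Pearson's r 0.231 over all genes and 0.754 over the 39. With the replicate block, 21 repair genes were called, 20 lower and RAD51D higher, against 5.9% lower and 4.93% higher among all genes. The lower ones were BRCA1, BRCA2, PALB2, BARD1, RAD51C, XRCC2, RAD54L, RAD54B, ATR, CHEK1, RIF1, FANCA, FANCI, BRIP1, BLM, WRN, PRKDC, XRCC4, XRCC5, MSH6. Of the other lists, 18 of 19 S phase genes, 25 of 76 pathway genes and 3 of 21 start partners (NPAT, MCM4 and TMEM167A) were called lower with the block, and no G2 and M phase gene was called. In that fit limma gave the genes 1 common trend of spread. The background shares with the block were taken over all genes tested, not over the better measured ones. The member median of -0.29 stayed between -0.31 and -0.26 under the scalings and between -0.41 and -0.22 without one library at a time, with 32 to 35 estimates below 0. Both auxin libraries were below both control libraries for 25 members with median-ratio scaling, 20 with scaling by library total and 11 on the deposited scale. These settings were added for this count after the data were seen, and the matching shares of all genes were taken only under the main scaling. The estimates of 32 of the 39 kept their sign in all these settings. The sign changed on the deposited scale for MDC1 (-0.0041), and, with one library left out, for RAD51B (-0.40 to 0.036), RAD52 (-0.036 to 0.19), TP53BP1 (-0.031 to 0.20), MDC1 (-0.25 to 0.28), RNF168 (-0.24 to 0.052), XRCC4 (-0.62 to 0.040) and LIG4 (-0.063 to 0.21), given as the lowest to highest value. POLD1, for which alternatives were added after the data were seen, ranged from -0.75 to -0.66 with one library left out. The depth in reads is unknown, and 2 libraries per group limit precision.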
